A study of Mus musculus with 7 samples.

Results

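Iron handling in Paneth cells (PCs) was described through 10 mouse genes: lipocalin 2 (Lcn2), the ferrireductases Cybrd1 and Steap4, the importers Slc11a2 and Tfrc, the ferritin subunits Fth1 and Ftl1, the export genes Slc40a1 and Heph, and the iron sensor Ireb2. They were chosen by name and matched by Ensembl identifier, as 10 of the 55414 genes in the count table. All 10 passed the filter on low counts, as did 14329 genes of the table. Lcn2 and Steap4 passed it through the TNF libraries, where they were high.

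PCs sit at the bottom of the crypts of the small intestine and secrete granules of antimicrobial proteins. They had been sorted from C57BL/6J mice and their RNA sequenced in bulk. One group of mice had been injected with phosphate-buffered saline (PBS, 3 libraries) and the other with tumour necrosis factor (TNF, an inflammatory cytokine, 4 libraries), and cells of both groups were taken 15 h later. Each library came from a separate mouse. The labels do not name the dose, the age or sex of the mice, the sorting antibodies or the part of the small intestine taken.

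Iron enters epithelial cells as ferrous ions through the transporter SLC11A2 after reduction by surface reductases, or bound to transferrin through the receptor TFRC. Iron that is not used is kept inside shells of ferritin, built from heavy (FTH1) and light (FTL1) chains, or leaves through ferroportin (SLC40A1), with hephaestin (HEPH) oxidising it on the way out. Lipocalin 2 belongs to the defence against bacteria: it binds siderophores, the small molecules with which bacteria collect iron, and it is also stored in neutrophil granules. IREB2, also called IRP2, is one of a pair of proteins that bind iron-responsive elements (IREs), hairpins in the untranslated regions (UTRs) of iron genes. Bound to a 5′ UTR they block translation, and bound to the 3′ UTR of Tfrc they protect the mRNA from decay.

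The IREs are shown because they are the hairpins through which IREB2 acts on Fth1, Ftl1, Slc40a1 and Tfrc. A search of the annotated UTRs (GENCODE M39, GRCm39) for a C, 5 bases, the loop CAGTGN and 5 bases that pair with the first 5 (G-T pairs allowed), on the transcript strand, found 7 elements in 4 of the 10 members. Each is printed 5′ to 3′ with 6 bases on either side and the 6-base loop in capitals. The pattern was present in the 5′ UTR of 47 of 20781 genes with such a region (0.226%) and in the 3′ UTR of 163 of 20941 (0.778%).
Fth1 5′ UTR, chr19:9960096-9960124, plus strand: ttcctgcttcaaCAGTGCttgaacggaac
Ftl1 5′ UTR, chr7:45109203-45109231, minus strand: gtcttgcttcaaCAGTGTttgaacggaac
Slc40a1 5′ UTR, chr1:45964625-45964653, minus strand: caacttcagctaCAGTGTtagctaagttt
Tfrc 3′ UTR, chr16:32450037-32450065, plus strand: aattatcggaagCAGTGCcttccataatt
Tfrc 3′ UTR, chr16:32450416-32450444, plus strand: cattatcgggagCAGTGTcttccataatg
Tfrc 3′ UTR, chr16:32450481-32450509, plus strand: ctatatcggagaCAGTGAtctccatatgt
Tfrc 3′ UTR, chr16:32450528-32450556, plus strand: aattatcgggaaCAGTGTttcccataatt

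The elements of the ferritin subunits were alike, with 26 of 29 bases identical between Fth1 and Ftl1. The other 6 members held no match in their annotated UTRs, which says only that this pattern is not there. Because 5′ elements act on translation, counts of mRNA do not show how much ferritin or ferroportin was made.

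Of the 10 members, 4 rose after TNF (Lcn2, Steap4, Slc11a2 and Ftl1), 2 fell (Cybrd1 and Slc40a1) and 4 were not called (Tfrc, Fth1, Heph and Ireb2). A differentially expressed gene (DEG) is one with an adjusted p under 0.05 (Benjamini-Hochberg) in edgeR's quasi-likelihood test over all genes. Of all genes tested, 59.6% were DEGs, 29.5% higher and 30.1% lower, so 6 of 10 members is close to the share of any gene in these data. The median log2 fold change of the members was 0.07, against 0.0017 over all genes. The groups did not overlap for 6 of the 10 members, where this held for 60.7% of all genes. In bulk libraries, fewer cells of a type and less RNA per cell cannot be told apart.

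**Figure D1:**
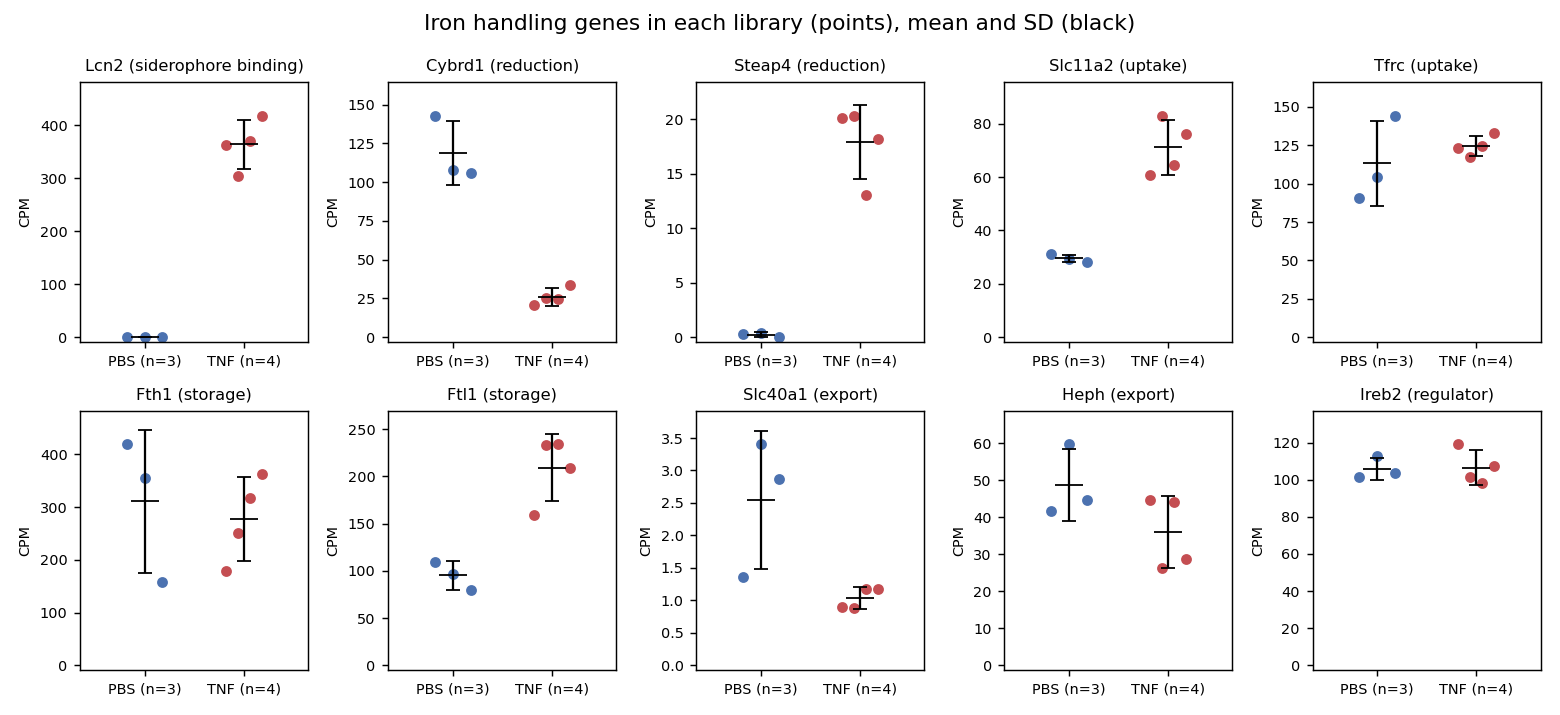
Each panel plots one gene in CPM (counts per 1e6 of the scaled library, vertical axis from 0) in the 3 PBS and 4 TNF libraries (points) with the mean and SD (black). Lcn2, Steap4, Slc11a2 and Ftl1 are higher in every TNF library than in any PBS library, Cybrd1 and Slc40a1 are lower, and the groups overlap for Tfrc, Fth1, Heph and Ireb2.

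Lcn2 (chromosome 2, 32274645 to 32278264, minus strand) went from almost no reads to one of the highest members per kilobase. It had 1, 12 and 8 counts in the PBS libraries and 6469, 5152, 6917 and 6386 in the TNF libraries. As CPM, counts divided by the library size after TMM scaling (a trimmed mean of log ratios between libraries) and multiplied by 1e6, these were 0.0618, 0.611 and 0.424 CPM against 362, 304, 370 and 418 CPM. The fitted log2 fold change was 9.87 ± 0.30 (SE, edgeR adjusted p = 1.03e-10). With 21 counts in all after PBS, its size rests on few reads, and leaving out single libraries moved it between 9.44 and 10.44.

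Some neutrophil markers moved with the group in the same direction as Lcn2. Over 12 neutrophil markers the summed level was 0.371 to 1.36 CPM after PBS and 7.87 to 13.4 CPM after TNF. Of the 3 markers tested, 2 rose, and these had passed the filter on low counts only through the TNF libraries. S100a9 had 0 counts in the PBS group against 399 in the TNF group, and Ly6g had 0 against 233, and these genes held most of the sum after TNF. Itgam, the other marker tested, was not called (0.781 ± 0.516 and 0.850 ± 0.233 CPM). Of the 12 markers, 7 were at 0 in every library, and these included the granule genes Ngp, Camp, Mpo, Elane and Mmp8. S100a8, too low to test, had 0 counts in the PBS group against 32 in the TNF group, and Ltf, a granule gene in another list here, had 8 against 116. The part of neutrophil RNA in the Lcn2 values was not tested. Lcn2 stood at 304 to 418 CPM in the same TNF libraries.

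The ferrireductases moved in opposite directions. Cybrd1 (chromosome 2, 70948267 to 70973270, plus strand), which encodes the duodenal cytochrome b reductase of the brush border, measured 143, 108 and 106 CPM after PBS and 20.5, 25.1, 24.5 and 33.7 CPM after TNF. The groups lay far apart, and the log2 fold change was -2.20 ± 0.16 (SE, edgeR adjusted p = 1.28e-07). Steap4 (chromosome 5, 8010260 to 8032214, plus strand), a reductase of iron and copper known to respond to inflammatory cytokines, had 5, 8 and 0 counts after PBS against 360, 345, 244 and 278 counts after TNF. As CPM, these were 0.309, 0.407 and 0 against 20.1, 20.3, 13.1 and 18.2. Its log2 fold change was 6.19 ± 0.44 (SE, edgeR adjusted p = 9.26e-08). With 13 counts in all after PBS, leaving out PBS replicate 2 raised it to 6.90, and leaving out PBS replicate 3 lowered it to 5.60.

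The promoter of Steap4 is shown because it held more matches to the NF-kappa B motif than that of any other member searched. Promoter windows (RefSeq, GRCm38.p6, 250 bases before to 50 after the start) were found for 7 members, all but Slc40a1, Slc11a2 and Heph, and both strands were searched. Of 32851 windows in that table, 2779 (8.459%, counting a window once) held the motif. In the stretch below, the start of the Steap4 window, capitals mark the 2 matches.
Steap4 promoter, chr5:7960222-7960261, plus strand: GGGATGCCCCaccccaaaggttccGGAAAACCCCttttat

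Single matches lay in the windows of Cybrd1, which fell, and of Ftl1, which rose. The windows of Lcn2, Fth1, Tfrc and Ireb2 held none, which says only that the motif is not in these bases. A match is a likeness of letters and not a measured binding site.

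Of the importers, Slc11a2 rose and Tfrc was not called. Slc11a2 (chromosome 15, 100285776 to 100322953, minus strand), which encodes the divalent metal transporter DMT1, measured 31.0, 29.4 and 28.2 CPM after PBS and 60.7, 83.0, 64.7 and 76.1 CPM after TNF. All TNF libraries lay above all PBS libraries, and the log2 fold change was 1.27 ± 0.13 (SE, edgeR adjusted p = 1.36e-06). Transcripts of Slc11a2 with and without an IRE are known, and counts per gene do not separate them. Tfrc (chromosome 16, 32427556 to 32451612, plus strand), the transferrin receptor with the 4 elements above, measured 90.7, 105 and 144 CPM after PBS and 123, 117, 124 and 133 CPM after TNF. The TNF values lay within the range of the PBS values. The log2 fold change was 0.14 ± 0.14 (SE, 95% interval -0.16 to 0.43, edgeR adjusted p = 0.416). Tfrc was highest in PBS replicate 3, and without that library it was a DEG that rose (0.34, adjusted p = 0.0193, range over its 14 alternatives 0.0193 to 0.982), while its sign turned with scaling by total counts (-0.06).

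The ferritin subunits did not move together. Ftl1 (chromosome 7, 45107367 to 45109308, minus strand) measured 110, 96.7 and 79.3 CPM after PBS and 159, 233, 234 and 209 CPM after TNF. No TNF library fell into the PBS range, and the log2 fold change was 1.13 ± 0.15 (SE, edgeR adjusted p = 2.39e-05). Fth1 (chromosome 19, 9957911 to 9962462, plus strand) measured 420, 354 and 159 CPM after PBS and 179, 251, 317 and 363 CPM after TNF. Its groups overlapped almost fully, and the spread within them left a wide interval (log2 fold change -0.16 ± 0.36 SE, 95% interval -1.01 to 0.68, edgeR adjusted p = 0.716). The libraries with the lowest Fth1 of their group, PBS replicate 3 and TNF replicate 1, also had the lowest summed level of 13 PC markers (171969 and 164293 CPM, against up to 278743 after PBS and 294418 after TNF). The part of this in the Fth1 values was not tested. Ferritin has many processed copies in the mouse genome, but over all libraries the 15 other Fth and Ftl genes and pseudogenes of the table had at most 118 counts each. How reads that match several copies had been treated was not stated.

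The ratio of Fth1 to Ftl1 counts, which needs no scaling between libraries, was 3.83, 3.67 and 2.01 after PBS and 1.13, 1.08, 1.35 and 1.74 after TNF. Every TNF library lay below every PBS library. The mean log2 ratio went from 1.60 ± 0.52 (SD, n = 3) to 0.38 ± 0.31 (SD, n = 4), a difference of -1.23 (two-sided exact permutation p = 0.0286, adjusted over 3 ratios p = 0.0429). The value of 0.0286 is the smallest this test can give with 3 and 4 libraries. As ratios of counts they were not divided by length, so they show a shift between the subunits and not which had more molecules.

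The export genes were low or overlapping. Slc40a1 (chromosome 1, 45947211 to 45965683, minus strand), which encodes ferroportin, had 22, 67 and 54 counts after PBS and 16, 15, 22 and 18 after TNF. These were 1.36, 3.41 and 2.86 CPM against 0.895, 0.884, 1.18 and 1.18 CPM. The groups did not overlap, though PBS replicate 1 lay close to the TNF libraries, and the log2 fold change was -1.30 ± 0.44 (SE, edgeR adjusted p = 0.0211). Leaving out PBS replicate 2 (-1.03, adjusted p = 0.122), PBS replicate 3 (-1.21, 0.0576) or TNF replicate 2 (-1.23, 0.0511) removed the call, which thus rests on few reads and on single libraries, with adjusted p between 0.00886 and 0.122 over its 14 alternatives. Heph (chromosome X, 95498965 to 95621010, plus strand) measured 41.7, 59.9 and 44.8 CPM after PBS and 44.6, 26.3, 44.1 and 28.9 CPM after TNF. A pair of TNF libraries lay within the PBS range and the other two below it, and Heph was not called (log2 fold change -0.44 ± 0.20 SE, 95% interval -0.87 to -0.0018, edgeR adjusted p = 0.0777). It was called lower without TNF replicate 1 (-0.56, adjusted p = 0.0315), without TNF replicate 3 (-0.56, 0.0344) and with no filter on low counts (-0.44, 0.00257), within a range of 0.00257 to 0.314 over its 14 alternatives. The fit with no filter left the fold change of Heph in place. It also lowered the edgeR adjusted p of several other members, for Cybrd1 from 1.28e-07 to 4.23e-66, but not that of Slc40a1 (0.0291).

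The ratio of Slc40a1 to Heph counts was 0.0334, 0.0574 and 0.0645 after PBS and 0.0207, 0.0346, 0.0273 and 0.0419 after TNF. The groups overlapped, and the difference of the mean log2 ratios, -0.73, could not be told from the spread (exact permutation p = 0.143, adjusted p = 0.143). The ratio of the reductase gene Cybrd1 to the transporter gene Slc11a2, whose products act in sequence at the brush border, was 4.60, 3.67 and 3.75 after PBS and 0.339, 0.303, 0.379 and 0.443 after TNF. The groups were far apart on either side of 1. The mean log2 ratio went from 1.99 ± 0.18 (SD, n = 3) to -1.47 ± 0.23 (SD, n = 4), a difference of -3.46 (exact permutation p = 0.0286, adjusted p = 0.0429).

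**Figure D2:**
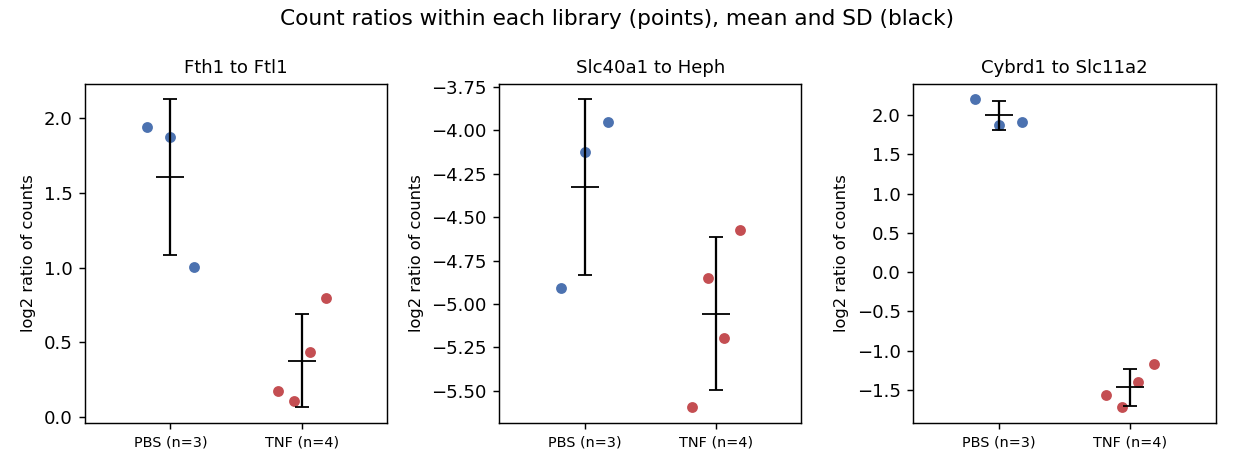
Each panel plots the log2 ratio of the counts of 2 genes (vertical axis, not starting at 0) in the 3 PBS and 4 TNF libraries (points) with the mean and SD (black). The groups are separate for Fth1 to Ftl1 and for Cybrd1 to Slc11a2, and overlap for Slc40a1 to Heph.

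Ireb2 (chromosome 9, 54770970 to 54820011, plus strand), the regulator, was the steadiest member. It measured 101, 113 and 103 CPM after PBS and 119, 101, 98.4 and 107 CPM after TNF. The groups overlapped, and the 95% interval of the log2 fold change, -0.21 to 0.23 around 0.01 ± 0.10 (SE, edgeR adjusted p = 0.935), was the narrowest of the members. Its small fold change took either sign under the alternatives. The IREB2 protein is controlled mainly by degradation when iron is plentiful, which counts of mRNA do not show.

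**Figure D3:**
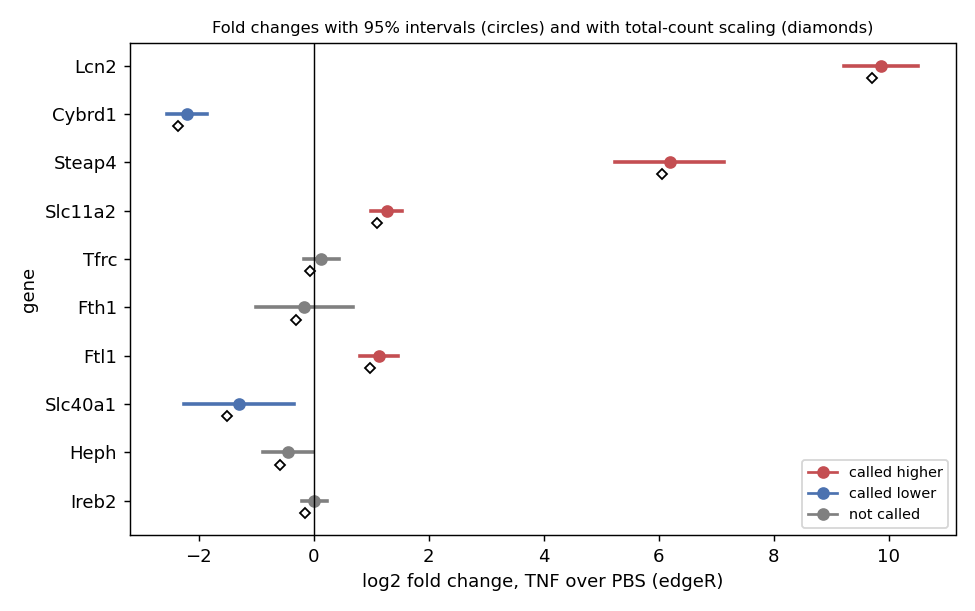
Circles give the log2 fold change (horizontal axis, TNF over PBS, edgeR with TMM scaling) of each member with its 95% interval, coloured by call, and diamonds the same with scaling by total counts only. The diamonds lie slightly to the left for every gene, and Lcn2 and Steap4 lie far to the right of the others.

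With scaling by total counts, the median over all genes shifted by -0.16 on the log2 scale and that of the members became -0.11. The same 4 members were called higher and the same 2 lower under each of the 4 scalings tried (TMM, DESeq2 size factors, total counts, and TMM without alpha-defensins and Lyz1).

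Levels were compared between members as CPM per kilobase of annotated exon. After PBS, the ferritin subunits were highest, with 88.4 ± 38.6 for Fth1 and 71.0 ± 11.4 for Ftl1 (SD, n = 3), and their ranges overlapped. Cybrd1 (22.3 ± 3.92) and Tfrc (16.0 ± 3.94) came next and overlapped as well, followed by Ireb2 (9.38 ± 0.533), Heph (3.90 ± 0.777) and Slc11a2 (2.67 ± 0.128). Slc40a1, Lcn2 and Steap4 were lowest, between 0.270 and 0.0664, and neighbours in this order overlapped.

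After TNF, Ftl1 (156 ± 26.4 CPM per kilobase, SD, n = 4) and Lcn2 (139 ± 17.9) were highest with overlapping ranges, and Fth1 followed at 78.9 ± 22.8. Tfrc (17.6 ± 0.932) and Ireb2 (9.45 ± 0.824) kept their levels within the spread. Slc11a2 (6.42 ± 0.930), Steap4 (4.99 ± 0.942) and Cybrd1 (4.86 ± 1.04) overlapped with one another and were separate from Ireb2 and from Heph. Heph (2.87 ± 0.777) came next, and Slc40a1 was the lowest member by far (0.110 ± 0.0177). The order depends on the length used. Divided by the length of the canonical transcript, a choice made after seeing the data, Fth1 (335 ± 146) was separate from Ftl1 (98.3 ± 15.7) after PBS, Tfrc passed Cybrd1 and Slc11a2 passed Heph, each with overlapping ranges. After TNF on that length, Slc11a2 (23.5 ± 3.40) came before Ireb2 (18.1 ± 1.58), Heph (6.02 ± 1.63) came before Steap4 and Cybrd1, each with overlapping ranges, and Lcn2 came first (397 ± 51.2) and overlapped with Fth1 (299 ± 86.3), which overlapped with Ftl1 (216 ± 36.6).

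The other genes of iron handling were examined in 6 lists. The genes tied to Lcn2 had the highest median. Of 6 tested genes for siderophore partners and regulators of Lcn2, 5 rose and 1 fell, with a median log2 fold change of 1.59. Leaving out single libraries moved this median between 1.49 and 2.34, and it was 2.05, 2.34 and 2.11 without PBS replicates 1, 2 and 3. The filter on low counts was applied anew each time. Without a PBS library it let in 14626 to 14878 genes in place of 14329, so the genes behind the median may differ. Cebpd, which encodes a transcription factor that drives Lcn2, rose from 4.14 ± 1.22 to 113 ± 18.4 CPM (log2 fold change 4.79 ± 0.20 SE, edgeR adjusted p = 9.02e-10), and its relative Cebpb rose by 2.16 ± 0.19 (3.92e-07). Osmr, a receptor of the interleukin 6 family, had the largest rise of the list (9.61 ± 0.32, adjusted p = 2.39e-10), with 10 counts in all PBS libraries, and like Lcn2 it passed the filter through the TNF libraries. The genes of the lipocalin receptors did not rise. Slc22a17 fell by 2.20 in log2 terms (from 3.32 ± 1.17 to 0.722 ± 0.411 CPM, edgeR adjusted p = 0.00159), and Lrp2, which encodes megalin, was at 0 in every library.

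Of 9 other genes of iron uptake and reduction, 3 rose and 2 fell, with a median of -0.23. Ltf, which encodes the iron-binding lactoferrin and is also a neutrophil granule gene, had 8 counts after PBS and 116 after TNF (log2 fold change 3.44 ± 0.76 SE, edgeR adjusted p = 0.00135). Like Lcn2, Ltf passed the filter on low counts through the TNF libraries. Steap1 rose by 1.17 ± 0.43 (adjusted p = 0.0315), and Cd63, a membrane protein of vesicles that carry ferritin, rose from 184 ± 45.1 to 282 ± 39.9 CPM (0.62 ± 0.17, 0.00609). Steap3, the reductase that acts on iron from transferrin in endosomes, fell from 8.40 ± 2.34 to 3.04 ± 0.559 CPM (-1.47 ± 0.27, adjusted p = 0.000324), and the iron and zinc importer gene Slc39a14 fell by 0.30 ± 0.10 on the log2 scale (0.0191).

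Of 9 genes of iron sensing and ferritin turnover, 4 rose and 4 fell (median -0.16). Ncoa4, which encodes the receptor that delivers ferritin to lysosomes, measured 34.1, 33.0 and 32.1 CPM after PBS and 15.1, 16.3, 16.4 and 14.1 CPM after TNF. These groups were narrow and far apart (log2 fold change -1.10 ± 0.12 SE, edgeR adjusted p = 3.02e-06). Fbxl5, whose product marks IREB2 for degradation when iron is present, measured 62.4, 63.1 and 64.6 CPM after PBS and 107, 97.5, 100 and 107 CPM after TNF (0.70 ± 0.09, adjusted p = 2.16e-05). All TNF libraries lay above all PBS libraries, in contrast to the overlapping groups of Ireb2 itself.

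Aco1, which encodes the other IRE-binding protein (IRP1), fell by 0.35 ± 0.11 on the log2 scale (edgeR adjusted p = 0.0133), Arnt fell by 0.40 ± 0.10 (0.00287) and Pcbp2, an iron chaperone gene, fell by 0.33 ± 0.11 (0.0189). Hif1a rose from 60.8 ± 5.82 to 465 ± 15.8 CPM (log2 fold change 2.94 ± 0.12, adjusted p = 2.93e-10). Epas1, which encodes HIF2-alpha, the hypoxia factor known to drive Cybrd1, Slc11a2 and Slc40a1 in enterocytes, rose by 0.73 ± 0.12 (0.000158). Of these 3 genes Slc11a2 rose and the others fell. The counts show the mRNA of Epas1 and not its protein, and a part of Epas1 in these changes was not tested. The pseudogene Ftl1-ps1 was also called higher, with 21 counts after PBS and 97 after TNF, and may share reads with Ftl1.

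In the hepcidin axis, of 5 tested genes, 1 fell and the other 4 were not called (median -0.07). Bmp6, an inducer of hepcidin, had 49 counts in the PBS group against 27 in the TNF group and a wide interval (log2 fold change -1.19, 95% interval -2.90 to 0.52). The one that fell was Neo1, which encodes neogenin, a co-receptor of bone morphogenetic proteins (-0.57 ± 0.10 SE, adjusted p = 0.000165). Hamp, the gene of hepcidin, the hormone that removes ferroportin from the cell surface, had too few counts to test (3 in all PBS and 22 in all TNF libraries). Hamp2 and Hjv were at 0 in every library.

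Haem handling had 5 rises and 5 falls among 15 genes (median -0.12). Hmox1, which encodes the heme oxygenase that releases iron from haem, measured 2.10, 2.24 and 2.02 CPM after PBS and 10.8, 17.9, 16.6 and 17.3 CPM after TNF (log2 fold change 2.88 ± 0.23 SE, edgeR adjusted p = 1.85e-07). The haem exporter gene Flvcr1 rose from 5.75 ± 1.20 to 18.9 ± 0.952 CPM (1.71 ± 0.18, adjusted p = 1.85e-06), and Alas1, the first enzyme of haem synthesis, rose by 0.74 ± 0.10 (1.51e-05). Lower values were found for Urod, a later enzyme of the same pathway (-1.21 ± 0.14, adjusted p = 5.1e-06), for Slc46a1, a carrier of folate and haem (-1.13 ± 0.29, 0.00384), and for the exporter gene Abcg2 (-0.84 ± 0.20, 0.00214).

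Of 13 genes of mitochondrial iron and iron-sulphur clusters, 7 rose and 3 fell, with a median of 0.44 (0.28 with scaling by total counts). The ferredoxin gene Fdx1 rose from 5.22 ± 0.808 to 15.6 ± 1.79 CPM (log2 fold change 1.58 ± 0.19 SE, edgeR adjusted p = 6.28e-06). Slc25a28, which encodes mitoferrin 2, an importer of iron into mitochondria, rose by 1.14 ± 0.15 (2.5e-05), and the cluster assembly gene Isca2 rose by 0.99 ± 0.16 (0.000106). Hscb, a co-chaperone of the same assembly, fell by 1.40 ± 0.33 in log2 terms (edgeR adjusted p = 0.00243), and Ciao1 fell by 0.55 ± 0.13 (0.00214). These lists are small and 59.6% of all tested genes were DEGs, so their counts are descriptions only.

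**Figure D4:**
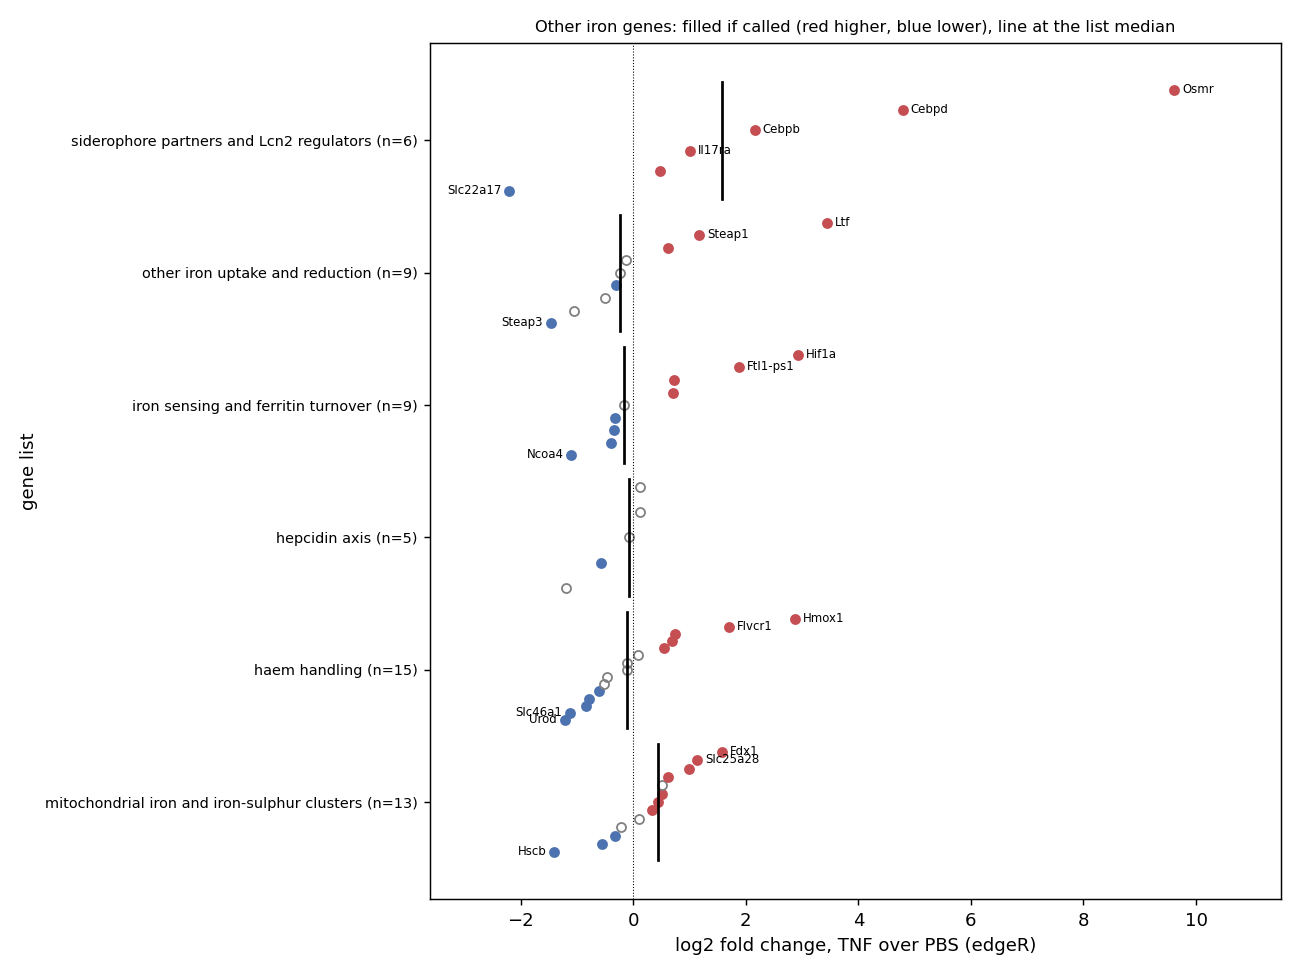
Each point is a tested gene of one list (rows) at its log2 fold change (horizontal axis, TNF over PBS), filled where it was called (red higher, blue lower), with a black line at the list median. Siderophore partners and Lcn2 regulators lie to the right with a median of 1.59, while the medians of the other lists lie between -0.23 and 0.44.

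The identity of the sorted cells bears on several members, since Cybrd1 and Slc40a1 are best known from absorptive cells of the duodenum. The libraries were rich in PC transcripts in both groups, with a summed level of 13 PC markers of 171969 to 278743 CPM after PBS and 164293 to 294418 CPM after TNF. Most of this sum came from Lyz1, Defa24 and Itln1, which were not called, while 3 of the 13 markers rose and 5 fell. Nupr1 (log2 fold change 2.49), Pla2g2a (1.90) and Mmp7 (0.88) rose, and Clps (-2.27), the surface receptor gene Kit (-1.68) and Habp2 (-1.26) had the largest falls. Enterocyte markers were low but moved with Cybrd1 and Slc40a1: 8 of 10 tested fell and 1 rose, and the summed level of the 12 listed was 378 to 517 CPM after PBS and 109 to 142 CPM after TNF. The lipoprotein genes Apoa1 (497 counts in the PBS group against 1 in the TNF group) and Apoa4 (199 against 1) and the sucrase gene Sis (log2 fold change -4.36) fell most. In the PBS group, replicate 2 held 434 of the Apoa1, 167 of the Apoa4 and 299 of the 469 Sis counts. Apoa1, Apoa4, Sis and Rbp2, which also fell, passed the filter on low counts through the PBS libraries. The glucose carrier gene Slc5a1 rose (0.46).

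Genes of position along the intestine moved as well. In lists that an earlier analysis had drawn up after seeing these data, with the members taken out, 3 of 4 tested duodenal and jejunal genes fell (summed level 69.4 to 93.9 CPM after PBS and 8.51 to 12.1 CPM after TNF). These were Pdx1 (log2 fold change -4.75), Gata4 (-2.94), which went from 62.7 ± 3.88 to 8.21 ± 1.76 CPM, and Cyp2c65 (-2.66). Pdx1 passed the filter on low counts through the PBS libraries. Of 4 tested ileal genes 3 rose and 1 fell (27.6 to 45.3 and 68.7 to 75.8 CPM). Slc51b (log2 fold change 3.26), Hoxb9 (2.22) and Hoxb8 (1.70) rose, and Hoxb9, which held most of the sum after TNF, went from 9.59 ± 1.96 to 44.6 ± 2.79 CPM. Slc51b passed the filter through the TNF libraries. Osr2 fell from 18.5 ± 2.61 to 9.60 ± 0.480 CPM. Among the ileal genes too low to test, Cubn had 136 counts in the PBS group against 0 in the TNF group. Fabp6 had 39 against 2, and Slc51a had 27 against 0, whereas Slc10a2 had 0 against 34. Of the PBS counts, replicate 2 held 123 for Cubn, 33 for Fabp6 and 24 for Slc51a. The groups were separate for both sums. The part of enterocyte RNA in the values of Cybrd1 and Slc40a1 was not tested. The labels do not say whether both groups came from the same part of the intestine, so for every member the injection and a difference in position cannot be told apart.

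Macrophages and red cell precursors are known for strong expression of iron genes, and macrophages for that of Slc40a1. Of 10 macrophage markers, 4 were tested, 1 rose and 2 fell, C1qc, Cd163 and Spic were at 0 in every library, and the summed level was 14.5 to 31.5 CPM after PBS and 13.1 to 18.1 CPM after TNF. Mrc1 rose (log2 fold change 2.69), and it passed the filter on low counts through the TNF libraries. C1qa (-2.60), which passed it through the PBS libraries, and the leukocyte gene Ptprc (-0.95) fell in the same direction as Slc40a1. All 3 genes that fell were highest in PBS replicate 2 (3.77, 26.2 and 3.41 CPM for C1qa, Ptprc and Slc40a1). The enterocyte genes Apoa1, Apoa4 and Sis were highest in that library as well (22.1, 8.50 and 15.2 CPM). The part of macrophage RNA in the values of Slc40a1 was not tested. Of 9 erythroid markers none was abundant enough to test, the 4 globin genes listed were at 0, and the sum stayed at or under 0.825 CPM. The globin genes include near-identical copies, and how their shared reads were counted was not stated. Goblet cell markers, several of which PCs also express, fell for 6 of 9 genes (13388 to 24006 and 9536 to 10968 CPM), most of all Fcgbp (log2 fold change -5.62), Zg16 (-4.59) and Clca1 (-2.86).

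**Figure D5:**
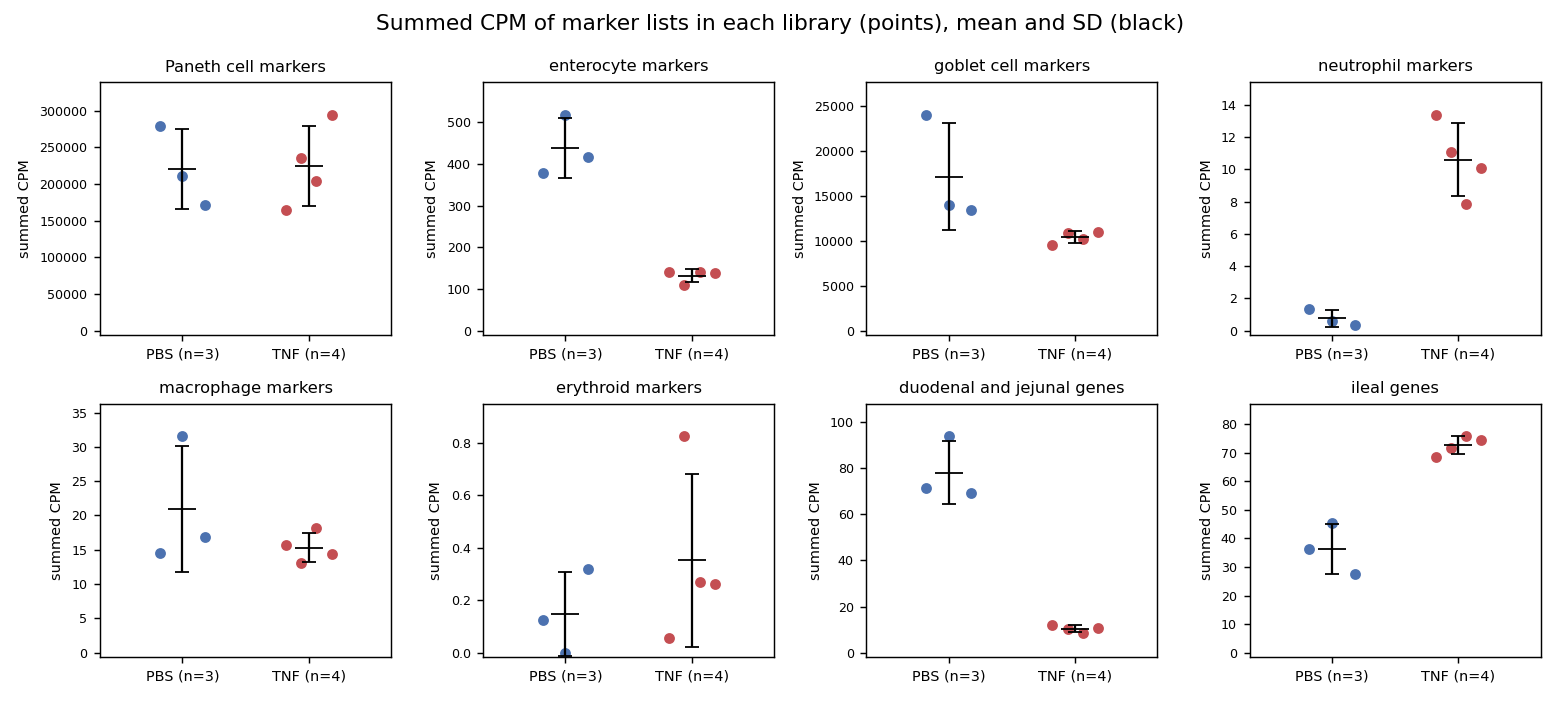
Each panel plots the summed CPM of one marker list (vertical axis, from 0) in the 3 PBS and 4 TNF libraries (points) with the mean and SD (black). PC markers overlap between the groups, enterocyte and duodenal and jejunal genes are lower after TNF, and neutrophil and ileal genes are higher.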

How the data were processed

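The authors deposited raw counts, whole numbers of reads per gene, in 1 column per library. The submitters' processing notes name FastQC, Trimmomatic 0.39, STAR 2.7.10a and DESeq2, and the builds mm10 and mm39 without their roles; the counting program, annotation and strand use were not given in the sources used here, and counts of overlapping, antisense or copied genes are uncertain. The annotated genes that overlap a member had at most 8 counts in any library where they are in the table. Totals were 15511455 to 19193721 counts per library, and intervals reflect the spread between libraries.

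Identifiers were matched to GENCODE M39 (54749 found, 98.8%). Counts were tested with edgeR 4.0.16 in R 4.3.3 (filterByExpr, TMM, robust quasi-likelihood fit over all 7 libraries, no covariate, two-sided, Benjamini-Hochberg over 14329 genes), after a test on simulated data. CPM use TMM-scaled library sizes (scale 1e6). Ratios used counts plus 0.5 and an exact permutation test in Python 3.11.15. Alternatives were other scalings and filters, DESeq2 1.42.0, a block by replicate number and leaving out each library. No batch is given in the labels, and no 2 libraries of a group were copies (chi-square per degree of freedom at least 16.7).

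The members, lists and tests were chosen with earlier results of these data known. All 10 members are named; of each other list, the called genes with the largest change were named, at most 3 in each direction, with genes at 0 that define a cell type. One gene that this rule names is not reported here. Any further gene was picked with its values in view.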

Additional observations from a re-analysis of the deposited data

How the results depend on the processing

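The calls of Lcn2, Steap4, Slc11a2, Ftl1 and Cybrd1 held under every alternative. Over 140 alternative fold changes of members, 124 kept their direction and their side of the threshold. The number of members called lower was 2, or 3 with no filter on low counts, which added Heph, 1 with the replicate block, where Slc40a1 lost its call (log2 fold change -1.30, adjusted p = 0.0856), and 1 to 3 when single libraries were left out; the number called higher was 4 to 5. The replicate numbers did not pair the libraries: deviations of same-numbered libraries correlated at -0.367, -0.0379 and -0.212. The block used replicates 1 to 3 and so dropped TNF replicate 4 as well; it gave 7067 DEGs, against 8093 without TNF replicate 4 alone and 8543 with all libraries. Signs turned with total counts for Tfrc (-0.061), Ireb2 (-0.15) and the members' median (-0.11), and for Ireb2 with the block (-0.0085) and already without TNF replicate 4 alone (-0.0054). Without single libraries, the range was -0.48 to 0.11 for Fth1, -0.049 to 0.060 for Ireb2 and -0.28 to 0.30 for the macrophage median. The cause was not tested. The ratio differences ran from -1.53 to -1.06 for Fth1 to Ftl1, -3.56 to -3.36 for Cybrd1 to Slc11a2 and -1.02 to -0.54 for Slc40a1 to Heph, and were -1.37, -3.56 and -0.89 over the pairs of the block, which by construction are the values without TNF replicate 4. With a library left out, too few splits remain for an exact test to pass the threshold. Depth limits Slc40a1 and, after PBS, Lcn2 and Steap4, with at most 67 counts in a library.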
